A study of Danio rerio with 6 samples.

Results

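The aminoacyl-tRNA synthetase genes were followed through RNA sequencing of sorted zebrafish leukaemia cells. Members were all genes whose symbol has the form of a synthetase name (an amino acid letter followed by ars, with the endings that mark subunits, copies or the mitochondrial enzyme, plus ears2 and eprs in lower case), and 33 of the 29095 listed genes matched. Symbols ending in 2 were taken as the mitochondrial enzymes, 13 genes, and the other 20 as the cytosolic enzymes. A gene whose product serves both compartments kept the class of its symbol. The members were taken by name and not by any measured value, although they were chosen with earlier results of these data known. The cells came from acute lymphoblastic leukaemia (ALL) in zebrafish of strain CG2, a clonal line. Cells of each of 3 tumours, numbered 1404, 1279 and 1314, were sorted into a side population (SP) and a non-side population (nonSP), giving 1 library per fraction and tumour, so that n = 3 in each fraction. By convention the side population is the fraction that exports a DNA-binding dye. The comparison asks what separates the SP cells of a tumour from its nonSP cells. The oncogene or transgene behind the tumours, the age of the fish and whether the tumours arose separately cannot be read from the labels, and the treatment field of the labels is empty for both fractions.

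Aminoacyl-tRNA synthetases join each amino acid to the tRNA that reads its codons, the step at which the genetic code is applied. Animals use separate nuclear genes for most of the enzymes that work in the cytosol, which supply the ribosomes that read nuclear messages, and for those that work in mitochondria, which supply the organelle's own ribosomes. The enzymes fall into class I and class II by the fold of their catalytic domain. Several cytosolic enzymes sit together in the multisynthetase complex, held by the scaffold proteins of the aimp1, aimp2 and eef1e1 genes. Dividing and growing cells generally need much charged tRNA, and in mammals many cytosolic synthetase genes are targets of the transcription factor ATF4, which acts when amino acids run short.

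Totals ranged from 30213658 to 62398607 counts per library, and 15770 genes had enough counts to be tested, including all 33 members. Member counts in a library ranged from 14 to 48145. Levels are given as CPM, read counts scaled to a common size by library total and TMM factor, in the order of tumours 1404, 1279 and 1314. Level is compared between libraries only, since gene lengths of the authors' annotation were not used here. The scaling matters, because SP and nonSP libraries differ in composition: over all tested genes the median log2 fold change is 1.15 with plain library totals and 0.09 with TMM. Lymphoid markers were present, with summed CPM of 78.3 to 1003 in SP and 160.5 to 1230 in nonSP for 10 T-lymphoid genes in the files, and of 3.96 to 140.2 and 2.76 to 133.7 for 8 B-lymphoid genes. Tumour 1279 held the highest T-lymphoid and the lowest B-lymphoid sums in both fractions. Among 7 lists of other cell types, the sums of fibroblast and muscle markers did not overlap between fractions. Those of neutrophil markers (9 genes in the files) overlapped. They were 639.6, 24.0 and 33.4 CPM in SP and 301.3, 31.1 and 39.7 CPM in nonSP for tumours 1404, 1279 and 1314. In tumour 1404 the neutrophil sum was mostly mmp9 (353.2 CPM in SP and 160.2 in nonSP) and ncf1 (175.4 and 54.1 CPM), neither of which passed. The T-lymphoid sums of that tumour were 123.5 and 160.5 CPM and the B-lymphoid sums 140.2 and 133.7 CPM. Sums over different genes do not rank the cell types within a library. Of 6 neutrophil genes tested in edgeR, 1 rose, 1 fell and 4 did not pass. The share called was 33.3%, beside 22.4% of all tested genes. Of 4 erythroid genes tested, 2 rose and 0 fell (50%), while the erythroid sums overlapped. Fibroblast markers (7 genes, none at 0 in all libraries) summed to 8.77 to 27.1 CPM in SP and 4.40 to 5.31 CPM in nonSP, and muscle markers (8 genes, none at 0 in all libraries) to 37.2 to 73.5 CPM and 5.24 to 29.7 CPM. In SP the muscle sum was mostly neb and ttna, with fitted log2 fold changes of 2.93 and 2.77 (edgeR adjusted p = 0.000168 and 0.000843). By contrast acta1b, skeletal muscle actin, was lower in SP in each tumour without passing (-0.87, edgeR adjusted p = 0.305), on 7 to 43 counts. Of 4 muscle genes tested 2 rose and 0 fell, and of 3 fibroblast genes 2 rose and 0 fell. These shares are 50% and 66.7%, beside 22.4% of all tested genes. The fibroblast sum in SP of tumours 1404 and 1279 was mostly dcn and lum. col1a1b overlapped between fractions and was lower in SP in tumour 1404 (2.48 against 3.90 CPM). The entries col1a1a, col1a2, pdgfra and postnb were at most 0.415 CPM in any library. The part of these lists in the results below was not tested.

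Few synthetase genes passed the threshold between the fractions. With 3 pairs of libraries, a gene that did not pass may still differ. Of the 33 members, 2 fell in SP and 0 rose at a Benjamini-Hochberg adjusted p below 0.05 in the quasi-likelihood test of edgeR, blocked by tumour. That is 6.06% of the members, beside 22.4% of all tested genes, of which 13% rose and 9.4% fell. The genes that fell were dars, the cytosolic enzyme for aspartate, and lars2, the mitochondrial enzyme for leucine. At an unadjusted p below 0.05, 5 members were lower and 2 higher, beside 5698 of all 15770 tested genes in either direction. DESeq2 called 4 members lower and 1 higher, beside 1910 lower and 1913 higher of 16142 genes. limma voom called 3 lower and 2 higher, beside 1842 lower and 2240 higher of 15770 genes. With library totals in place of TMM, 12 members rose and 0 fell, beside 8015 and 277 of 15770 genes. In that fit 96.7% of all calls were higher in SP, against 58.0% with TMM. In these sorted fractions, a lower share of cells that use a gene and less of its RNA per cell cannot be told apart.

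In SP, dars stood at 66.8, 40.7 and 85.1 CPM, against 143.4, 81.9 and 261 CPM in nonSP. Every tumour was lower in SP, by log2 ratios of -1.10, -1.01 and -1.62, although the SP library of tumour 1314 was slightly above the nonSP library of tumour 1279. The log2 fold change of dars was -1.24 ± 0.38 (SE, n = 3 tumours, as for all values after ± below), or 2.36-fold lower, with an edgeR adjusted p = 0.0212. For lars2 the levels were 1.30, 1.06 and 4.59 CPM in SP and 3.57, 2.03 and 12.6 CPM in nonSP. These rest on 88, 69 and 440 counts in SP and on 152, 36 and 570 in nonSP. Again each tumour was lower in SP while the fractions overlapped across tumours, and the log2 fold change was -1.29 ± 0.41 (edgeR adjusted p = 0.0258). Without tumour 1279 the values were -1.34 for dars and -1.43 for lars2 (edgeR adjusted p = 0.0885 and 0.0707). Leaving out tumour 1314 gave -1.05 and -1.20 (edgeR adjusted p = 0.212 and 0.203). Neither call held in these fits, in which 667 and 708 of all tested genes fell, beside 1483 with all tumours. Without tumour 1404, where 1685 of all tested genes fell, dars passed at -1.43 (edgeR adjusted p = 0.00212). With library totals in place of TMM both calls ended, at -0.17 for dars and -0.22 for lars2.

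**Figure D1:**
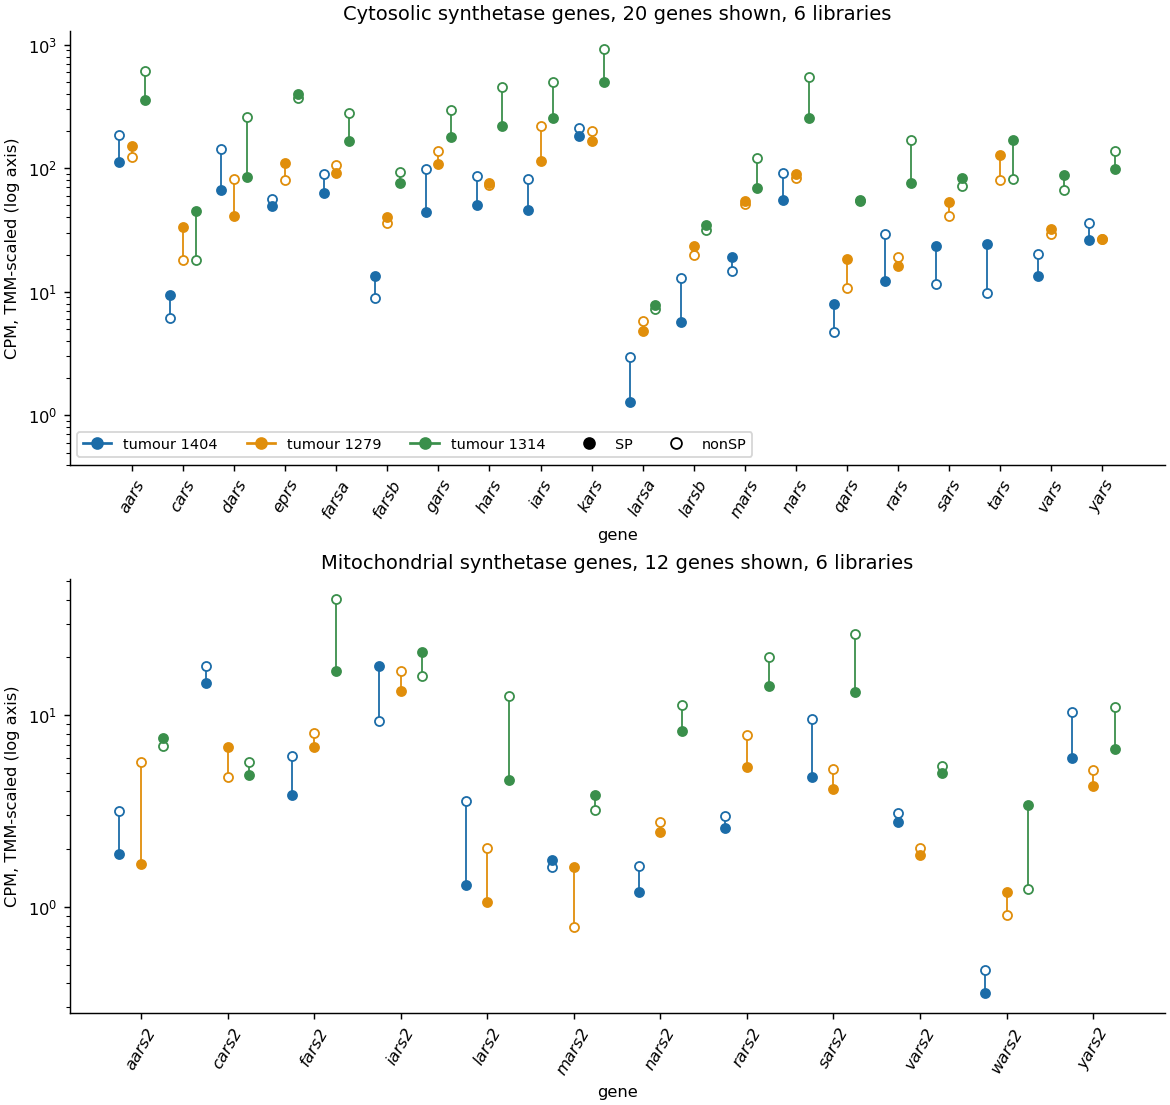
Level of 32 of the 33 synthetase genes (CPM, TMM-scaled, log axis) in the 6 libraries, cytosolic genes in the upper panel and mitochondrial genes in the lower; filled circles are SP, open circles nonSP, and a line joins the fractions of a tumour. Tumour 1314 lies highest for most genes in both fractions, and dars and lars2 are lower in SP in each tumour.

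No member had its 3 SP libraries all on one side of its 3 nonSP libraries (0 of 33, beside 15.2% of all tested genes). With TMM scaling, 15 members were lower in SP in all 3 tumours and 5 were higher in all 3, while among all tested genes 24.0% were lower and 31.1% higher in all 3. The median log2 fold change was -0.41 over the members and 0.09 over all tested genes. With library totals these medians were 0.66 and 1.15, so the sign of the members' median turned. Its distance to the median of all genes was -0.50 with TMM and -0.49 with library totals. A change of scaling shifts all genes by nearly the same amount, so it leaves this distance nearly unchanged by construction. Over every setting tried this distance lay between -0.56 and -0.40. By catalytic class, the median was -0.12 for 18 class I genes and -0.50 for 15 class II genes. In each class 1 gene fell (5.56% and 6.67%, beside 9.4% of all tested genes). With library totals these medians were 0.95 and 0.57. eprs, which charges both glutamate and proline, was counted in class I alone.

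**Figure D2:**
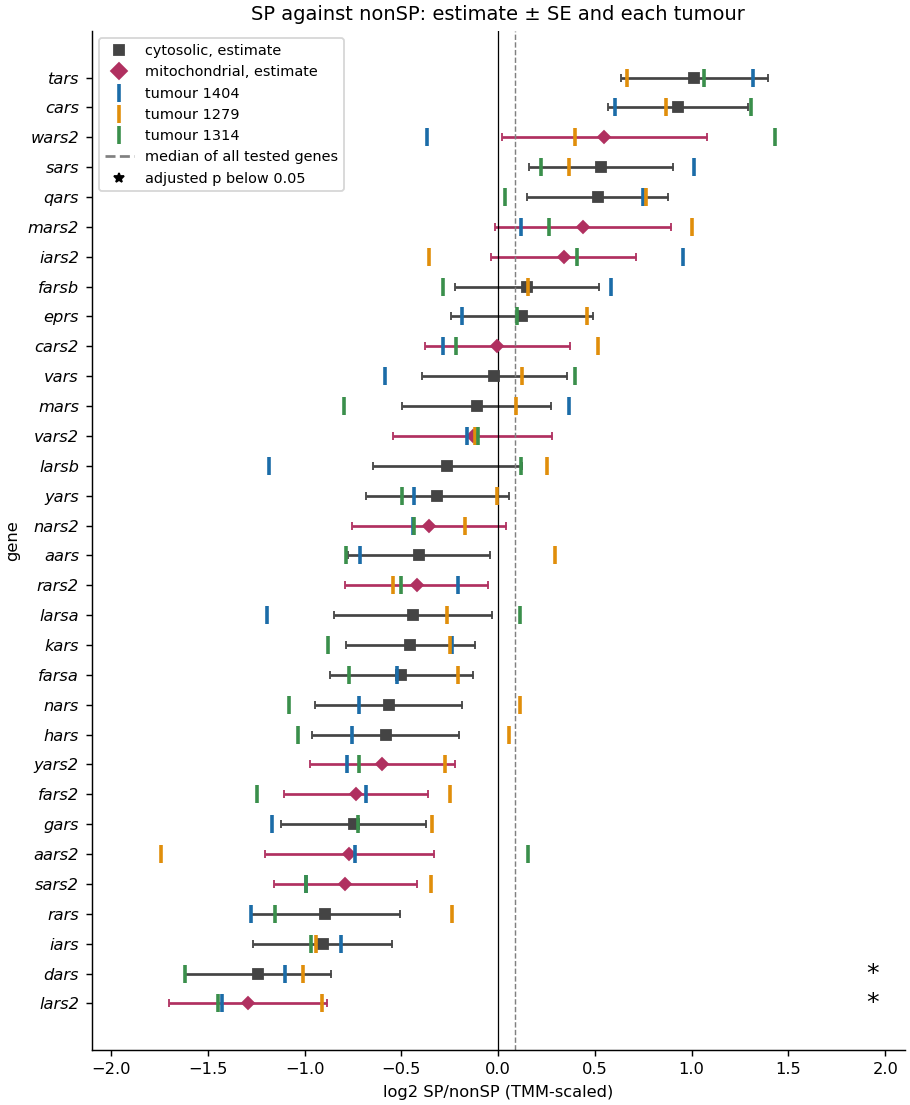
Log2 ratio of SP to nonSP for 32 of the 33 members, ordered by the fitted value; squares (cytosolic) and diamonds (mitochondrial) are the fitted log2 fold change with its SE, coloured ticks are the 3 tumours, and stars mark an adjusted p below 0.05. Most genes lie left of the dashed median of all tested genes, and dars and lars2 carry the stars.

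Among the cytosolic enzymes, 1 of 20 fell (5%, beside 9.4% of all tested genes), 0 rose and 19 did not pass, with a median of -0.36. The 9 genes whose products belong to the multisynthetase complex in animals (dars, eprs, iars, kars, larsa, larsb, mars, qars and rars) had a median of -0.44, and the other 11 a median of -0.31. With library totals these medians were 0.64 and 0.76, below the 1.15 of all genes. Next to dars, the isoleucine enzyme gene iars had the lowest value in the complex. It stood at 46.3, 113.4 and 252.7 CPM in SP and 81.1, 217.8 and 494.6 CPM in nonSP. Its ratios were nearly equal in the 3 tumours, at -0.81, -0.94 and -0.97, and its log2 fold change of -0.91 ± 0.36 missed the threshold in edgeR (adjusted p = 0.07). In DESeq2 (adjusted p = 0.0168) and limma voom (0.0291) it passed, and with library totals it was 0.17. The arginine enzyme gene rars stood at 12.1, 16.1 and 76.4 CPM in SP and 29.5, 19.0 and 169.7 CPM in nonSP, lower in all tumours but weakly so in tumour 1279 (-0.24). Its log2 fold change was -0.89 ± 0.39 (edgeR adjusted p = 0.0934, and 0.0361 in DESeq2). kars, the lysine enzyme, was lower in SP in each tumour, with 181, 167.4 and 502.4 CPM against 212.9, 198.8 and 923.7 CPM and a log2 fold change of -0.45 ± 0.33 (edgeR adjusted p = 0.343).

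The rest of the complex showed no common direction. eprs, a single protein that charges both glutamate and proline, was near equal in the fractions, with 49.0, 109.2 and 396.6 CPM in SP, and nonSP held 55.9, 79.5 and 370.4 CPM (0.12 ± 0.37). qars, the glutamine enzyme, was higher in SP in each tumour at 7.92, 18.3 and 55.6 CPM against 4.70, 10.8 and 54.2 CPM, though by a ratio of 0.04 in tumour 1314 (log2 fold change 0.51 ± 0.36, edgeR adjusted p = 0.321). The methionine enzyme gene mars split by tumour, with ratios of 0.37, 0.09 and -0.80. The paired copies larsa and larsb, for leucine, both had their lowest ratio in tumour 1404 (-1.19 and -1.18) and lay between -0.26 and 0.25 in the others. Reads that fit both copies could have been split between them. Of the scaffold genes, aimp1 fell, from 61.5, 32.3 and 107.7 CPM (nonSP) to 27.8, 20.0 and 43.2 CPM (SP) (-1.05 ± 0.37, edgeR adjusted p = 0.0436). That call ended without tumour 1279 (-1.22, edgeR adjusted p = 0.113), without tumour 1314 (-0.92, 0.257) and with library totals (0.02). Without tumour 1279 or 1314, 667 and 708 of all tested genes fell, beside 1483 with all tumours. Without tumour 1404, 2 of the 3 scaffold genes fell. aimp2 was lower in each tumour without passing (-0.85 ± 0.36, edgeR adjusted p = 0.0899), and eef1e1 stood at 0.32 ± 0.48 on 0.258 to 3.90 CPM.

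Outside the complex, members lay on both sides, and those with the highest values were tars and cars. tars, the threonine enzyme, stood at 24.2, 127.9 and 169.6 CPM in SP, and nonSP held 9.70, 80.7 and 81.2 CPM, higher in each tumour by 1.31, 0.67 and 1.06. Its log2 fold change of 1.01 ± 0.38 missed the threshold narrowly (edgeR adjusted p = 0.0542), whereas DESeq2 (0.94, adjusted p = 0.0303), limma voom (0.95, 0.0325) and an unfiltered edgeR fit (1.09, 0.0333) called it. cars, the cysteine enzyme, stood at 9.41, 33.3 and 44.9 CPM in SP, and nonSP held 6.18, 18.2 and 18.1 CPM, also higher in each tumour (0.93 ± 0.36, edgeR adjusted p = 0.0641, and 0.0372 in limma voom). sars, the serine enzyme, which also loads serine on the selenocysteine tRNA, was higher in each tumour at 23.3, 52.9 and 83.1 CPM against 11.6, 41.0 and 71.2 CPM (0.53 ± 0.37, edgeR adjusted p = 0.315). These 3 genes were higher in SP with every scaling tried.

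The other 8 cytosolic genes ranged from -0.75 to 0.15 in log2 fold change, and none passed. gars, the glycine enzyme, and farsa, the catalytic subunit of the phenylalanine enzyme, were lower in each tumour (-0.75 ± 0.37 and -0.50 ± 0.37), as was the tyrosine enzyme gene yars (-0.31 ± 0.37). farsb, the other subunit of the phenylalanine enzyme, had ratios of 0.58, 0.16 and -0.28 and did not follow farsa. The alanine, histidine and asparagine enzyme genes had one pattern: aars had ratios of -0.72, 0.29 and -0.79, hars of -0.75, 0.05 and -1.04, and nars of -0.72, 0.11 and -1.08. All 3 were thus lower in SP in tumours 1404 and 1314 and slightly higher in tumour 1279. vars, the valine enzyme, was near 0 (-0.02 ± 0.37, edgeR adjusted p = 0.979), with ratios of -0.58, 0.12 and 0.40. With library totals the fold changes of gars, farsa, yars, aars, hars, nars and vars were above 0, between 0.33 and 1.06.

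Of the mitochondrial enzymes, 1 of 13 fell (7.69%, beside 9.4% of all tested genes), 0 rose and 12 did not pass, with a median of -0.42. In SP 8 were lower in each tumour, beside 24.0% of all tested genes. Besides lars2, these included fars2, nars2, rars2, sars2, vars2 and yars2, which charge phenylalanine, asparagine, arginine, serine, valine and tyrosine. sars2 stood at 4.76, 4.12 and 13.2 CPM in SP and 9.51, 5.25 and 26.4 CPM in nonSP (-0.79 ± 0.37, edgeR adjusted p = 0.125). fars2 was at 3.81, 6.78 and 16.9 CPM against 6.13, 8.07 and 40.2 CPM (-0.73 ± 0.37, edgeR adjusted p = 0.154). Of the lower genes vars2 was nearest to 0, with ratios of -0.16, -0.12 and -0.11. aars2, the alanine enzyme, had the widest spread, with ratios of -0.74, -1.74 and 0.15 and a log2 fold change of -0.77 ± 0.44. cars2, the cysteine enzyme, was near 0 (0.00 ± 0.38), and it was the only member that was highest in tumour 1404 in both fractions.

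Only 3 mitochondrial genes had a fitted value above 0, and none of them passed. iars2, for isoleucine, stood at 18.1, 13.3 and 21.4 CPM in SP, and nonSP held 9.33, 17.0 and 16.1 CPM, higher in tumours 1404 and 1314 and lower in tumour 1279 (0.34 ± 0.37, edgeR adjusted p = 0.546). mars2, for methionine, was higher in each tumour (0.44 ± 0.45), and wars2, for tryptophan, had ratios of -0.37, 0.40 and 1.43. Counts of wars2 were low, at 24, 78 and 325 in SP and 20, 16 and 56 in nonSP, so its ratios carry much counting error. With library totals 12 of the 13 mitochondrial genes were above 0, lars2 being the exception. In that fit 4 passed as higher in SP, beside 8015 of all 15770 tested genes.

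Further synthetase genes are listed under symbols that the name rule does not take: EARS2 and TARS2 in capitals, pars2, tarsl2 and 2 entries named WARS. EARS2, the mitochondrial glutamate enzyme, was lower in each tumour at 2.45, 1.97 and 4.76 CPM against 3.88, 3.67 and 16 CPM and passed (-1.11 ± 0.40, edgeR adjusted p = 0.0488). It did not pass without tumour 1279 (-1.20, edgeR adjusted p = 0.13) or tumour 1314 (-0.77, 0.413), and was -0.04 with library totals. TARS2 and the first WARS entry were lower in each tumour without passing (-0.74 ± 0.37 and -0.73 ± 0.36), pars2, for proline, was higher in each (0.66 ± 0.42), tarsl2 stood at -0.19 ± 0.50, and the second WARS entry had 0 counts in every library. With EARS2, TARS2 and pars2 counted, 2 of 16 mitochondrial genes fell, beside 9.4% of all tested genes, and the median was -0.46.

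The class medians of cytosolic and mitochondrial enzymes were close, and their order differed between tumours. The median log2 fold changes of the classes, -0.36 and -0.42, differed by 0.06, and by -0.19 to 0.22 over the settings tried, with the negative end reached without tumour 1279. By tumour, the median ratio was -0.55, 0.10 and -0.61 in the cytosolic class and -0.44, -0.27 and -0.22 in the mitochondrial class, beside 0.00, 0.26 and 0.00 for all tested genes. The sum of cytosolic counts divided by the sum of mitochondrial counts needs no scaling between libraries. It follows the classes by symbol, so a gene that serves both compartments counts in its symbol class alone. The quotient was 12.9, 24.2 and 26.5 for the SP libraries and 15.7, 19.5 and 29.5 for the nonSP libraries. From nonSP to SP it thus fell in tumours 1404 and 1314, by 0.28 and 0.16 on the log2 scale, and rose by 0.31 in tumour 1279. Genes with high counts weigh most in this quotient. Without kars and aars its changes were -0.34, 0.30 and -0.08 in tumours 1404, 1279 and 1314. Mitochondrial enzymes took 7.19% (exact 95% binomial interval 6.99 to 7.40), 3.97% (3.85 to 4.10) and 3.64% (3.58 to 3.71) of member counts in SP, and 5.99% (5.80 to 6.20), 4.88% (4.62 to 5.14) and 3.28% (3.21 to 3.35) in nonSP. These intervals cover counting error only, and within each tumour they do not overlap, but the direction differs between tumours. With 3 pairs an exact sign-flip test cannot go below p = 0.25, so no test was made of this ratio.

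**Figure D3:**
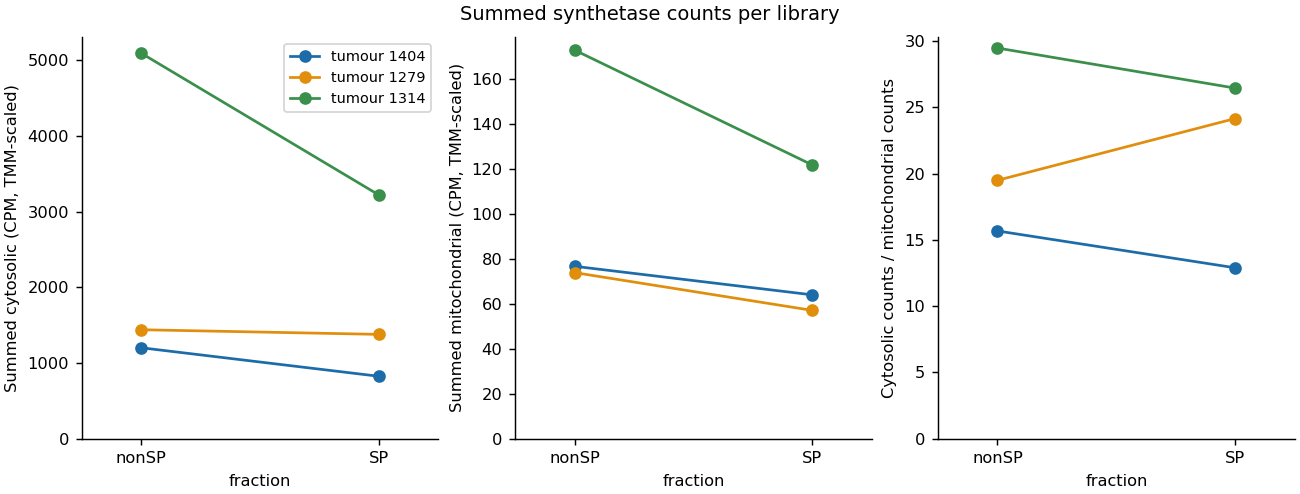
Summed level of the 20 cytosolic genes (left) and the 13 mitochondrial genes (middle), in TMM-scaled CPM, and the ratio of their summed counts (right), for nonSP and SP of each tumour. With TMM scaling the sums are lower in SP in each tumour (with library totals they are higher) and highest in tumour 1314, while the ratio rises toward SP in tumour 1279 and falls in the others.

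Comparing the enzymes for the same amino acid gave differences in both directions. In 14 pairs of a cytosolic and a mitochondrial gene, for 12 amino acids, the cytosolic log2 fold change was below the mitochondrial one in 5, and the median difference was 0.26. By tumour the median over the pairs was 0.20, 0.30 and 0.35, above 0 in each. The pairs are not independent, since fars2 is paired with both farsa and farsb, and lars2 with both larsa and larsb. All pairs with fars2 or lars2 were above 0 in each tumour. The difference kept one sign in all 3 tumours in 9 pairs, above 0 in 7 of them and below 0 in the others. It exceeded 1 in size for sars with sars2, larsb with lars2 and iars with iars2. For serine, the cytosolic ratio exceeded the mitochondrial one by 2.0, 0.71 and 1.22, since sars was higher and sars2 lower in SP in each tumour. For leucine, larsb exceeded lars2 by 0.24, 1.16 and 1.57, with larsb at 5.71, 23.5 and 34.5 CPM in SP and 13.0, 19.8 and 31.8 CPM in nonSP. For isoleucine the order was the opposite, iars below iars2 by 1.76, 0.58 and 1.38 in the same order of tumours. The scaling between libraries cancels in these differences, and they were not tested.

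**Figure D4:**
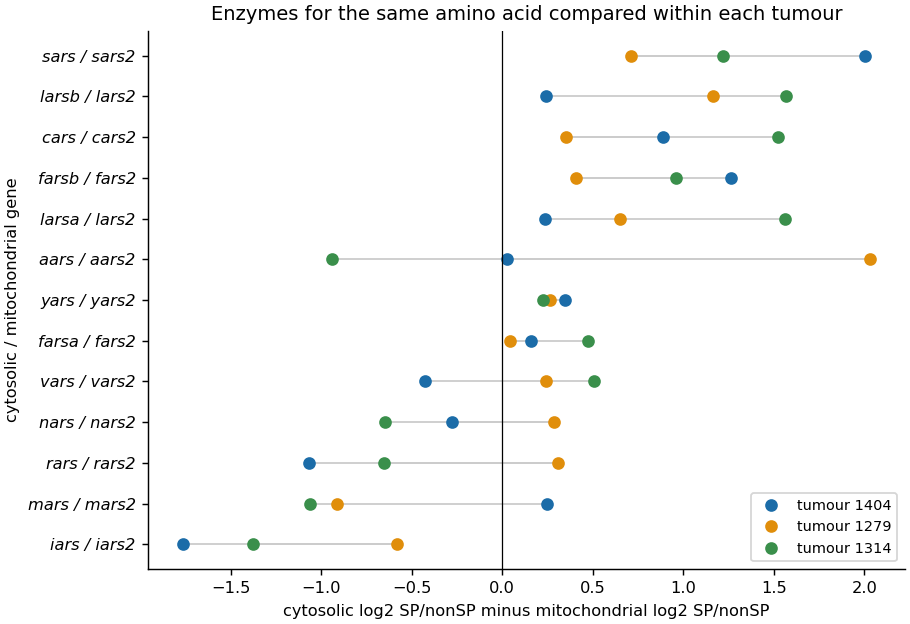
Difference between the log2 SP to nonSP ratio of the cytosolic gene and that of the mitochondrial gene for the same amino acid, 1 point per tumour, in 13 of the 14 pairs. Pairs are ordered by the difference of their fitted log2 fold changes, with serine at one end and isoleucine at the other, each on the same side of 0 in all tumours.

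Synthetase levels lay far apart between tumours. Within a fraction, a member's highest and lowest tumour were apart by a median of 2.12 (SP) and 2.32 (nonSP) on the log2 scale, while the median size of its SP to nonSP ratio within a tumour was 0.52. For all tested genes these medians were 1.55, 1.86 and 0.79. The tumour values are ranges over 3 libraries and the fraction value a difference within a pair, so their sizes are not like measures. Summed cytosolic CPM of the SP libraries were 825, 1378 and 3219, and those of the nonSP libraries 1201, 1439 and 5091. Summed mitochondrial CPM were 63.9, 57.0 and 121.6 for SP and 76.6, 73.8 and 172.6 for nonSP. Tumour 1314 was therefore far above the others in both classes and both fractions. It was the highest tumour in both fractions for 30 of 33 members (19 cytosolic and 11 mitochondrial), beside 26.3% of all tested genes, and for 32 of 33 with library totals, beside 35.6%. In 17 members both fractions had the order 1404, 1279 and 1314 from low to high. Per gene, the median log2 difference of tumour 1314 over 1404 was 2.2 in SP and 2.26 in nonSP for cytosolic genes, and 1.39 and 0.87 for mitochondrial genes. Each tumour is a single sample, so these differences have no replicate check. The library totals of tumour 1314 were 54591407 and 55521873 counts. Its T-lymphoid sums were 78.3 and 183.9 CPM, beside 123.5 and 160.5 CPM in tumour 1404, and its B-lymphoid sums 70.8 and 62.4 CPM, beside 140.2 and 133.7 CPM.

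Level also bears on the comparison of fractions. With TMM scaling, in the class above 7 in average log2 CPM, 43.3% of 508 tested genes fell and the median was -0.69. The level classes were read with TMM alone. With library totals 277 of all 15770 tested genes fell, and the median over all genes was 1.15. The 8 members in that class, all cytosolic, had a median of -0.53, and 0 of them passed. Between 5 and 7, the 8 cytosolic members had a median of -0.07 beside 0.04 for all 1504 genes of the class. All 13 mitochondrial genes lie below 5. Between 3 and 5, the 6 mitochondrial members had a median of -0.46 and the 3 cytosolic members 0.51, beside 0.07 for 3801 genes. Below 3, the 7 mitochondrial members had a median of -0.36 and the 1 cytosolic member stood at -0.44, beside 0.13 for 9957 genes.

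**Figure D5:**
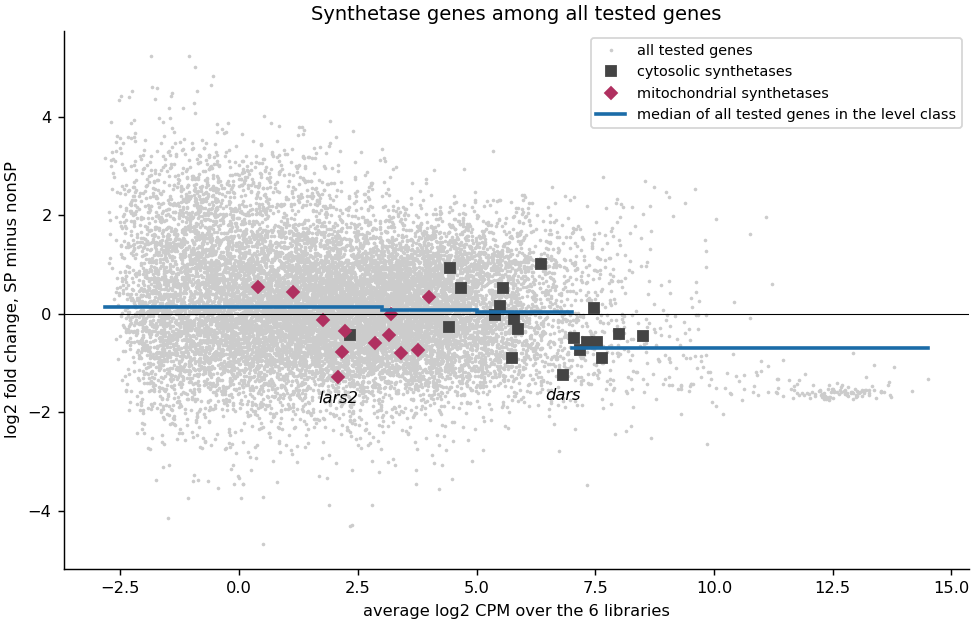
Log2 fold change (SP minus nonSP, TMM-scaled) against average log2 CPM for all 15770 tested genes (grey), with cytosolic (squares) and mitochondrial (diamonds) synthetases and the median of all genes in each level class (blue lines). The median of the class above 7 lies at -0.69, and that of its 8 members at -0.53.

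Of 11 tested charging partners and editing factors, pars2 and tarsl2 among them, 2 fell in edgeR, 0 rose and 9 did not pass, with a median of -0.19. The 2 are 18.2% of the list, beside 22.4% of all tested genes called in either direction. The highest value was that of sepsecs, which completes selenocysteine on its tRNA (1.08 ± 0.48, edgeR adjusted p = 0.106), higher in SP in each tumour. dtd1, which removes D-amino acids from mischarged tRNA, fell from 12.3, 19.1 and 44.8 CPM to 5.10, 5.63 and 16.6 CPM (-1.49 ± 0.36, edgeR adjusted p = 0.00525). gatb, a subunit of the amidotransferase that makes mitochondrial glutaminyl-tRNA after glutamate has been attached, fell from 4.30, 3.72 and 30.0 CPM to 1.76, 1.85 and 12.6 CPM (-1.19 ± 0.37, edgeR adjusted p = 0.0252). dtd1 did not pass in edgeR without tumour 1279 (-1.33, adjusted p = 0.0656), nor did gatb without tumour 1279 (-1.25, 0.0901) or tumour 1314 (-1.14, 0.187). With library totals both calls ended, at -0.41 and -0.12.

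Of 42 tested genes of tRNA processing and modification, 10 fell, 1 rose and 31 did not pass, with a median of -0.59. Calls in either direction made up 26.2% of this list, beside 22.4% of all tested genes, of which 13% rose and 9.4% fell. In 24 of the 42, SP lay below nonSP in all 3 tumours, beside 24.0% of all tested genes. The 10 that fell included tsen34, a subunit of the tRNA splicing endonuclease (-1.54 ± 0.39, edgeR adjusted p = 0.00741), pus1, a pseudouridine synthase (-1.45 ± 0.37), and trmt5, a tRNA methyltransferase (-1.22 ± 0.38). pus1 stood at 9.06, 4.13 and 36.8 CPM in SP, and nonSP held 29.3, 9.08 and 104.4 CPM. The gene that rose was clp1, an RNA kinase that in mammals binds the splicing endonuclease and also acts in messenger RNA 3′ end formation (1.28 ± 0.39, edgeR adjusted p = 0.022). Without tumour 1279 or without tumour 1314, 2 genes of the list fell and 0 rose. Over all tested genes 667 and 708 fell and 1396 and 1141 rose in these fits. In them trmt5 (-0.98 and -1.27) and clp1 (1.27 and 1.29) did not pass. With library totals 13 of the 42 rose and 0 fell, beside 8015 and 277 of all 15770 tested genes. The median of the list was then 0.49, beside 1.15 for all genes, with tsen34, pus1 and trmt5 at -0.47, -0.38 and -0.15.

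Genes of the ATF4 and amino acid response, to which many synthetase genes belong in mammals, moved in both directions: 10 of 39 rose, 5 fell and 24 did not pass, with a median of 0.30. The share called was 38.5%, beside 22.4% of all tested genes, where 13% were higher and 9.4% lower. slc38a2, a neutral amino acid transporter, rose from 214.6, 252.6 and 44.4 CPM to 1641, 759.2 and 267.8 CPM (2.38 ± 0.35, edgeR adjusted p = 5.62e-05). sesn2, a leucine-responsive restraint on TORC1, rose by 2.03 ± 0.42. atf4a itself fell from 1407, 847.5 and 927.6 CPM to 597.6, 345.7 and 273.5 CPM (-1.43 ± 0.30, edgeR adjusted p = 0.00182). eif2s1b, a copy of the eIF2 alpha subunit, fell by 1.57 on the log2 scale. Their other copies did not pass, atf4b at -0.19 ± 0.32 (edgeR adjusted p = 0.705) and eif2s1a at -0.24 ± 0.36 (edgeR adjusted p = 0.672). Counts were 6 up and 7 down of 38 without tumour 1404, and 8 and 4 of 39 without tumour 1279. They were 5 and 1 without tumour 1314, and 28 and 0 with library totals. Over all tested genes, 1247 rose and 1685 fell without tumour 1404, and 1396 and 667 without tumour 1279. Without tumour 1314 these counts were 1141 and 708, and with library totals 8015 and 277. atf4a did not pass in edgeR without tumour 1314 (-1.26, adjusted p = 0.078). With library totals the calls of atf4a (-0.36) and eif2s1b (-0.50) ended.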

How the data were processed

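The authors deposited raw counts per gene symbol, 1 table per library. The submitters' processing notes name build GRCz10 and, without roles, edgeR 3.20.7, DESeq 1.30.0, featureCounts 1.28.1, Cufflinks 2.2.1 and STAR 2.5.1b. The annotation and strand setting were not stated, so overlapping or antisense genes cannot be separated.

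Sample titles gave the group and tumour number. Fractions with the same number come from 1 tumour, and their deviations from the group means correlated at 0.753, 0.839 and 0.818 (tumours 1404, 1279 and 1314), so tumour was a block. R 4.3.3 with edgeR 4.0.16 was used: filterByExpr (minimum count 10, total 15), TMM, glmQLFit (robust) and glmQLFTest, with Benjamini-Hochberg adjustment at 0.05 over the 15770 genes kept. SE is the fold change over the square root of F. Both SE and p borrow the spread of other genes (23.2 prior degrees of freedom), and p-values concern these 3 pairs alone. A prior count of 2 entered the log2 ratios of single tumours. Libraries differed by more than sampling noise (chi-square at least 224 per degree of freedom). Scripts were tested on simulated data.

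Members and lists were chosen with earlier results of these data known. The naming rule took members past the threshold and amino acids whose enzymes differ by over 1 in log2 fold change. It also took up to 4 called genes of each list other than the cell type markers. Values of 1 member and 1 list gene are not reported here. Other genes given in detail, and those outside the symbol rule, were chosen after seeing the data. Alternatives were DESeq2 1.42.0, limma 3.58.1 voom, other factors and filters, no block and each tumour left out.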

Additional observations from a re-analysis of the deposited data

How the results depend on the processing

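Without the tumour block edgeR called 0 genes higher and 0 lower in SP over all genes (1251 at an unadjusted p below 0.05), over the members (0 at that p) and in either class, and the members' median was -0.41. No other setting but library totals turned a class median. With library totals 8015 genes rose and 277 fell (median 1.15), and of the members 12 rose and 0 fell (median 0.66), 8 and 0 in the cytosolic class (0.71) and 4 and 0 in the mitochondrial class (0.65). The stricter filter gave 1048 higher and 904 lower genes over all, with 2 cytosolic members higher and 2 lower and 0 mitochondrial members lower, since lars2 was removed. Members called higher were 2 in limma voom and 1 each in DESeq2, without a filter and with TMM computed without ribosomal and mitochondrial genes, all cytosolic. Members called lower were 4 in DESeq2, 3 of them cytosolic. The cytosolic count lower was 2 with limma voom, upper-quartile factors and TMM without ribosomal and mitochondrial genes. Adding EARS2, TARS2 and pars2, chosen after seeing the data, gave 2 mitochondrial genes lower. Leaving out gars and kars, also chosen then, gave a cytosolic median of -0.29. Leaving out each tumour gave 1141 to 1396 higher and 667 to 1685 lower genes (all-gene medians -0.02 to 0.11). It gave 0 members higher and 0 to 3 lower (cytosolic 0 to 2, mitochondrial 0 to 1), with medians of -0.43 to -0.30 over the members, -0.51 to -0.23 cytosolic and -0.58 to -0.32 mitochondrial.

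Single members changed sign as follows; the cause was not tested beyond the shift of all genes with library totals. With library totals the log2 fold changes were 0.66 (aars), 0.57 (farsa), 0.33 (gars), 0.49 (hars), 0.17 (iars), 0.62 (kars), 0.64 (larsa), 0.82 (larsb), 0.96 (mars), 0.50 (nars), 0.18 (rars), 1.06 (vars), 0.76 (yars), 0.30 (aars2), 1.07 (cars2), 0.34 (fars2), 0.72 (nars2), 0.65 (rars2), 0.28 (sars2), 0.94 (vars2) and 0.47 (yars2). In limma voom, without a filter and without the block vars was at 0.059, 0.054 and 0.20. cars2 was at 0.036 in limma voom and 0.068 without a filter, and farsb at -0.086 without the block. Leaving out each tumour gave ranges that cross 0 for eprs (-0.028 to 0.16), farsb (-0.18 to 0.37), larsb (-0.51 to 0.074), mars (-0.47 to 0.23), vars (-0.23 to 0.15), cars2 (-0.24 to 0.11) and iars2 (-0.084 to 0.70). Of 376 such values, 310 kept their direction and side of the threshold. Counts under 100, as for wars2, limit single ratios.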

Other observations

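In both fractions tumour 1314 was the highest for 36 of 42 genes of tRNA processing and modification, 9 of 11 charging partners and editing factors and 3 of 3 scaffold genes of the multisynthetase complex, beside 26.3% of all tested genes. For genes of the ATF4 and amino acid response it was the highest in 9 of 39. asns, the asparagine synthetase and a common ATF4 target, was at 13.0, 39.3 and 37.6 CPM in SP and 24.1, 37.7 and 20.5 CPM in nonSP (tumours 1404, 1279 and 1314), and atf4b at 484.1, 398.4 and 225.6 CPM and 554.7, 488 and 240.5 CPM, lowest in tumour 1314. The proline synthesis gene aldh18a1 was also highest in tumour 1314 in both fractions, with 8.38, 11.7 and 49.7 CPM in SP and 15.8, 15.9 and 73.9 CPM in nonSP. Each tumour is a single sample, and these genes were named after their values were seen.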
